A study of Homo sapiens with 9 samples.

Results

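The genes described here are 46 DNA replication factors, taken by gene name from the 58735 genes of the deposited count table: the origin recognition and licensing factors, the replicative helicase and its activators, the replicative polymerases, the sliding clamp and its loader, the single-strand binding protein, the enzymes that join Okazaki fragments, and the enzymes that supply deoxynucleotides. All 46 names were found once each, and all 46 passed the filter on low counts that left 17023 genes for testing.

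The cells were OVCAR3, an established line of human ovarian cancer, and every group was the same line grown in RPMI 1640 with serum and bovine insulin and sequenced 72 h into culture. Each of 3 groups had 3 libraries: a scramble hairpin, whose genotype is labelled WT, and 2 hairpins against GPX3, numbered 76 and 78 (sh76 and sh78 below), both labelled GPX3 knock-down. Such hairpin RNAs lower mRNAs that match it, and GPX3 encodes a secreted glutathione peroxidase that removes peroxides. The study asked what GPX3 does in these cells. Nothing used here says whether the replicates came from separate cultures or transductions, so p-values measure the spread between these libraries, which may be technical.

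Replication origins are licensed in G1, when the origin recognition complex, CDC6 and CDT1 load the MCM2-7 ring onto DNA in an inactive form. Geminin (GMNN) blocks this step later in the cycle. In S phase, CDC45 and the GINS complex join the ring to make the active helicase, polymerase alpha-primase lays down primers, and polymerases delta and epsilon extend them on the PCNA clamp, which the RFC complex loads. Many of these genes are transcribed from E2F-bound promoters as cells enter S phase, so their mRNA levels are often read as a sign of how many cells are cycling. In bulk RNA, fewer cells in S phase and less RNA per cell cannot be told apart.

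Libraries held 14652965 to 21327562 counts, and the 46 replication factors together took between 0.314% and 0.339% of them. Mean GPX3 in counts per 1e6 (CPM, scaled with TMM factors) was 133.2 ± 34.84 (SD, n = 3) in scramble; sh76 had 55.85 ± 0.8524 and sh78 30.65 ± 4.013, lower in each hairpin library than in any scramble library. Of 10 epithelial and ovarian carcinoma markers, none was at 0 counts in a group, and their summed FPKM (fragments per kilobase of exon, scaled to library size) was 2682 to 3022 in scramble, 2585 to 2990 with sh76 and 2159 to 2424 with sh78. EPCAM, KRT8, KRT18 and KRT19 were called lower with sh78 and none of the 10 higher. With sh76, KRT19 was called higher (log2 fold change 0.36, edgeR adjusted p 0.0177; −0.31 and 0.03 with sh78) and PAX8 lower (−0.28, edgeR adjusted p 0.0196). The summed FPKM of 4 endothelial markers was 2.17 to 2.48 in scramble, 2.43 to 3.18 with sh76 and 3.15 to 4.29 with sh78; of the 3 tested KDR was called (log2 fold change 0.55 and 1.00, edgeR adjusted p 0.0396 and 0.00087), and PECAM1 stayed under 1 CPM in all 9 libraries. The 5 leukocyte markers summed to 0.77 to 1.25, 1.29 to 1.53 and 1.53 to 1.64 FPKM, with CD3E and CD68 at 0 counts in scramble and sh76, and the 7 fibroblast markers to 2.8 to 4.01, 3.1 to 5.65 and 3.48 to 4.76 FPKM, with LUM at 0 in scramble and sh78 and DCN at 0 in scramble. In 1 library, sh76 replicate 2, some fibroblast markers stood apart. COL1A2 had 142 counts there (19 to 51 in the other libraries), COL3A1 53 (0 to 4) and DCN 11 (0 to 3). The part of these markers in the results below was not tested. Without sh76 replicate 2, edgeR called 0 replication factors for sh76, 2 for sh78 (MCM3 and MCM4) and 0 between the hairpins, against 0, 2 and 1 with it.

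The promoters are shown first because they carry a feature that many of the replication factors share and that their choice did not use. RefSeq gave a promoter of 300 bases (250 before the start site and 50 after it, GRCh38.p14) for 40 of the 46 genes; MCM4, MCM5, GINS4, POLD3, RPA2 and RPA3 are not among them. A pair of 8-base forms of the E2F binding motif were searched on both strands, TTTCCCGC and TTTGGCGC. At least 1 of them stood in 17 of the 40 promoters, or 42.5%, against 631 of all 27305 promoters in the same table, or 2.31%. Related lists, described below, held matches too. They stood in 5 of 21 promoters of G1/S regulators (23.8%), 4 of 27 of other replication genes (14.8%) and 1 of 15 of G2/M genes (6.67%). The 250 bases before the start site are printed for 3 subunits of the helicase ring and for the clamp, 5′ to 3′ on the gene's strand, with each match in capitals; GCGGGAAA is TTTCCCGC read on the other strand.

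MCM3 (chr6:52284743-52284992, minus strand): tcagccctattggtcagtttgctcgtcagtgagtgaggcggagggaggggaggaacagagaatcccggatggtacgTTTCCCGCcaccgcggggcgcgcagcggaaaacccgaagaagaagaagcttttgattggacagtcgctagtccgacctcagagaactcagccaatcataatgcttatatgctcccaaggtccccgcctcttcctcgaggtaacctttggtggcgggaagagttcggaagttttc
MCM6 (chr2:135876444-135876693, minus strand): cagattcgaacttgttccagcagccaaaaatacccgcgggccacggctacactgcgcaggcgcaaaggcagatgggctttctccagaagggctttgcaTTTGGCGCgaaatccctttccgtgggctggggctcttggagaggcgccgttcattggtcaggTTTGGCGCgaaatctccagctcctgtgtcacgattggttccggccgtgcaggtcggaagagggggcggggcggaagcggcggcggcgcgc
MCM7 (chr7:100101398-100101647, minus strand): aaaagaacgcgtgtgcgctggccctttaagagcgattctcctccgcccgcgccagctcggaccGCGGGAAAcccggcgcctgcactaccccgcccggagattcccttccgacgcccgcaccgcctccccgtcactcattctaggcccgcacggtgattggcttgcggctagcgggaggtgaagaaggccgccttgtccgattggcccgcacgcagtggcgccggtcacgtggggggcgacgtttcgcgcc
PCNA (chr20:5126623-5126872, minus strand): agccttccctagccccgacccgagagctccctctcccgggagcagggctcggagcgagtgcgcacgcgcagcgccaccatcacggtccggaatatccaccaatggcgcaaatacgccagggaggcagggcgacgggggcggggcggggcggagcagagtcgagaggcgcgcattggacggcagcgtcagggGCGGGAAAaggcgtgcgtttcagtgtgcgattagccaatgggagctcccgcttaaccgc

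MCM3 had 1 match, 174 to 167 bases before the start site, and MCM6 had 2 copies of TTTGGCGC, each followed by gaaat. MCM7 and PCNA each had TTTCCCGC on the other strand, in PCNA 59 to 52 bases before the start. Matches were found in 3 of 4 promoters of the helicase ring (MCM4 and MCM5 had none to search), 3 of 5 of its activators, 3 of 9 of the origin recognition and licensing genes and 1 of 4 of the nucleotide supply genes. The CCAAT box, CCAAT on either strand, stood in 23 of the 40 promoters (57.5%) and in 35.7% of all promoters. In the related lists it stood in 86.7% of G2/M, 48.1% of other replication and 33.3% of G1/S promoters. TTTGAA, a core of the element found in many mitotic genes, stood in 1 of the 40 (2.5%) against 15.4% of all promoters. It stood in 10 of 15 promoters of the G2/M genes listed below. These are matches of letters, not measured binding. Other forms of the E2F motif were not searched, so a promoter without a match may still hold one.

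The replication factors were well expressed. Their mean level in scramble ran from 1.29 FPKM (GINS3) to 142 FPKM (TK1), with a median of 10.3 FPKM against 3.64 FPKM over all genes tested, and the lowest count of any of them in a library was 104 (GINS3, scramble replicate 1). FPKM divides by the total exonic length of all annotated isoforms, so a gene with long rare exons is placed too low.

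The highest levels per length belonged to TK1, which encodes the thymidine kinase of the salvage pathway (142 ± 10.8 FPKM in scramble; SD, n = 3), MCM7 of the helicase ring (79.2 ± 4.98 FPKM) and PCNA (60.5 ± 5.92 FPKM). The lowest were GINS3 (1.29 ± 0.0206 FPKM), POLA2, the accessory subunit of polymerase alpha (1.37 ± 0.236 FPKM), and MCM8, a helicase of DNA repair outside the MCM2-7 ring (3.8 ± 0.41 FPKM). Levels per length differed within complexes. The 6 subunits of the MCM2-7 ring, present once each in the complex, ranged from 9.79 FPKM (MCM5) to 79.2 FPKM (MCM7), 8.09 times apart. In the GINS complex, GINS1, GINS2 and GINS4 had 10.5, 8.29 and 6.19 FPKM against 1.29 FPKM for GINS3. In polymerase delta, POLD2 had 40.0 FPKM against 12.0 FPKM for POLD1, the catalytic subunit. The 6 origin recognition subunits ranged less, from 4.74 FPKM (ORC4) to 8.34 FPKM (ORC3).

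**Figure D1:**
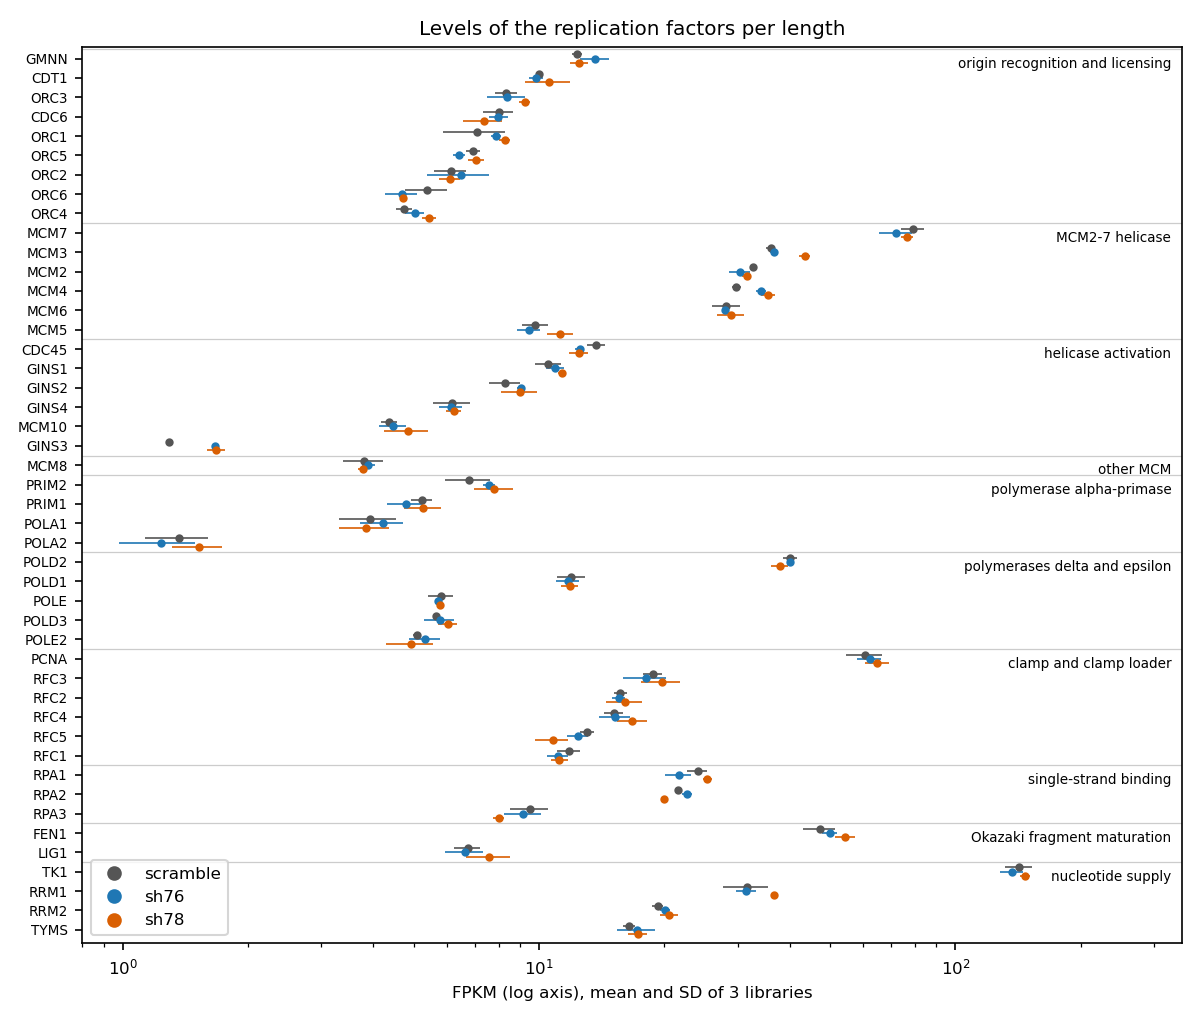
Mean FPKM (log axis) with the SD of 3 libraries for the 46 replication factors in scramble (grey), sh76 (blue) and sh78 (orange), ordered by role. The 3 groups lie close together for most genes, from 1.29 FPKM for GINS3 to 142 FPKM for TK1 in scramble. Genes for which sh78 stands apart include MCM3, RRM1 and RPA2, and scramble lies below both hairpins for MCM4 and GINS3.

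Some of these levels carry a limit of annotation. The libraries do not keep strand, and 8 of the 46 genes share at least 10% of their exonic bases with another annotated gene. The largest shares were 46.6% for TYMS (thymidylate synthase; ENOSF1 and TYMSOS on the opposite strand), 35.1% for POLA2 and 23.6% each for MCM2 and GINS4. PRIM1, the primase catalytic subunit, shared 21.6%, in part with NACA on the same strand. Counts for these genes are uncertain, since reads in shared stretches could be dropped or given to either gene. MCM3, MCM4, MCM5, MCM6 and PCNA shared none. Of 15 annotated pseudogenes named after members, RRM2P3 had the most counts, 0.752% of those of RRM2.

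With sh76 none (0) of the 46 replication factors was called against scramble by edgeR's quasi-likelihood test at an adjusted p under 0.05, where 3.58% of all genes were called (1.43% higher and 2.16% lower). At an unadjusted p under 0.05 there were 3 (MCM4, GINS3 and RPA1; 17.4% of all genes), DESeq2 called 1 (MCM4) and limma on FPKM called 0. The median log2 fold change of the 46 was 0.00 (0.01 over all genes tested), and single values ran from −0.19 (ORC6) to 0.37 (GINS3). Their quartiles were −0.05 and 0.07, against −0.13 and 0.16 over all genes. The 95% intervals of 44 of the 46 lay within 0.5 of 0 on the log2 scale, against 52.9% of all genes tested. In the related lists described below, so did 95% of G2/M genes, 88.5% of G1/S regulators and 82.4% of other replication genes. The median SE was 0.09 for the 46 and 0.14 over all genes. Within 0.25 of 0 lay 24 of the 46 intervals, against 2747 of all 17023 genes. A change of 2-fold in either direction was thus outside the interval of every replication factor, since the lowest bound was −0.55 and the highest 0.65.

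With sh78, 2 of the 46 were called against scramble, MCM3 and MCM4, both higher. This is 4.35% of the replication factors, against 4.41% of all genes called (1.85% higher and 2.56% lower); 9 were under 0.05 unadjusted, against 17.5% of all genes. The median log2 fold change was 0.06 (0.01 over all genes), and values ran from −0.28 (RFC5) to 0.38 (GINS3). Above 0 were 30 of the 46 values, against 8730 of all 17023 genes. The groups overlapped in this shift. The median log2 deviation of the 46 from their own means was −0.054, −0.018 and 0.021 in scramble replicates 1 to 3. With sh78 it was 0.031, 0.071 and −0.003. Again 44 of 46 intervals lay within 0.5 of 0, against 52.2% of all genes. The share was 80% of G2/M genes, 84.6% of G1/S regulators and 85.3% of other replication genes. Within 0.25 of 0 lay 15 of the 46 intervals, against 2551 of all 17023 genes. Between the hairpins 1 of the 46 was called, MCM3, higher with sh78 (2.17%, against 3.7% of all genes, 1.97% higher and 1.72% lower). At an unadjusted p under 0.05 there were 6 (16.3% of all genes). Above 0 were 34 values, against 8521 of all 17023 genes, with a median of 0.05 (0.00 over all genes).

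**Figure D2:**
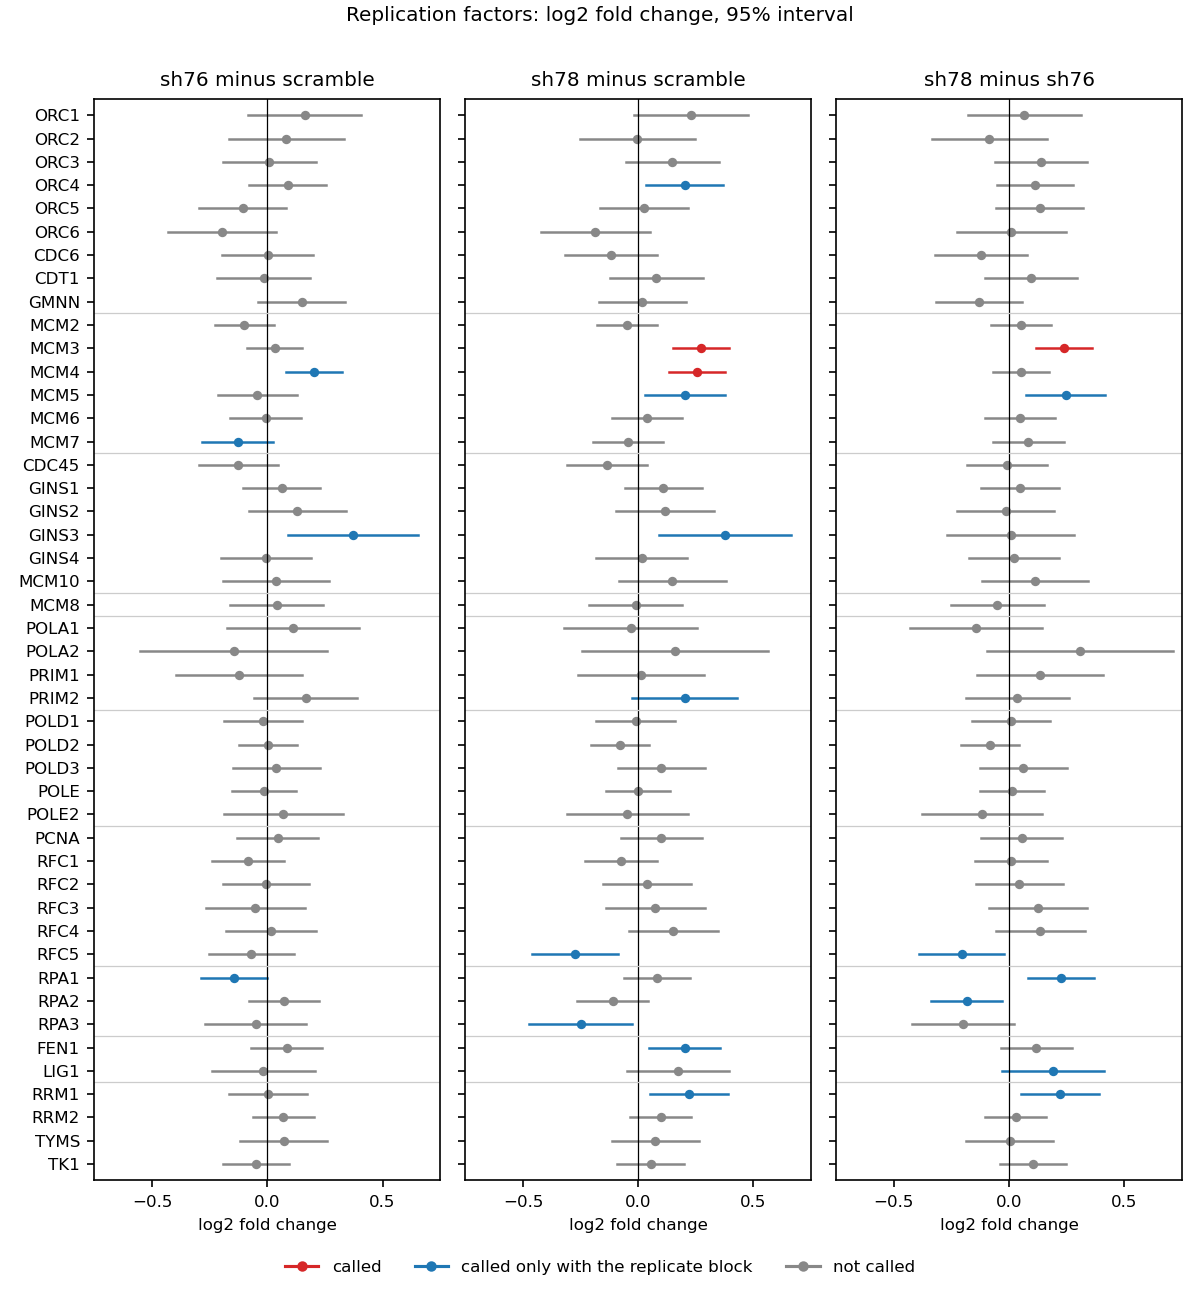
Log2 fold change (point) and unadjusted 95% interval (line) of the 46 replication factors for sh76 against scramble, sh78 against scramble and sh78 against sh76, with grey lines between roles. MCM3 and MCM4 (red) were called for sh78 and MCM3 between the hairpins. Blue marks genes called only when the replicate number was a block, and no interval reaches 1 in either direction.

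Replicates carry numbers 1 to 3 in all groups, and same-numbered libraries deviated from their group means together, so a fit with the number as a block was read beside the fit without it. With the block, 4 of the 46 were called for sh76 (8.7%, against 20.4% of all genes), 10 for sh78 (21.7%, against 19.9%) and 7 between the hairpins (15.2%, against 18.3%). The share of replication factors called was below or near the share of all genes in each comparison. For sh78, 8 were higher and 2 lower (9.79% and 10.1% of all genes). For sh76, 2 were higher and 2 lower (9.63% and 10.7%), and between the hairpins 5 and 2 (9.69% and 8.62%). Groups that did not overlap were also counted. With sh76, 4 of the 46 lay higher in all 3 libraries than in scramble and 2 lower, against 10.8% and 11.7% of all genes. With sh78 there were 8 and 4, against 10.2% and 11.2%, and between the hairpins 6 and 1, against 10.9% and 10.9%. The replicate number itself was called for 11 of the 46 (23.9%), against 28.8% of all genes.

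The genes called without the block, MCM3 and MCM4, were both of the helicase ring. With the block, ORC4, MCM5, GINS3, PRIM2, RFC5, RPA3, FEN1 and RRM1 were also called for sh78. MCM3 (ENSG00000112118, chromosome 6, 52264009 to 52284881, minus strand, GRCh38) had 130, 132 and 135 CPM in scramble replicates 1 to 3, 132, 135 and 138 CPM with sh76, and 156, 157 and 165 CPM with sh78. The sh78 libraries all lay above the other 6, and the sh76 and scramble libraries overlapped. On the log2 scale MCM3 rose with sh78 by 0.27 (SE 0.06, edgeR adjusted p 0.013), which is 1.21-fold with a 95% interval of 1.11 to 1.31, and was higher in 3 of 3 same-numbered pairs. It was also higher with sh78 than with sh76, by 0.24 (SE 0.06, edgeR adjusted p 0.031). Against scramble, sh76 gave 0.03, with an interval from −0.09 to 0.15. The sh78 call was lost without scramble replicate 2 (adjusted p 0.0541) and without sh78 replicate 3 (0.0632), and the call between hairpins without any of the 6 hairpin libraries (0.0639 to 0.112), with log2 fold changes of 0.22 to 0.27 in these fits; with the block the adjusted p-values were 7.59e-06 and 6.15e-05.

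MCM4 (ENSG00000104738, chromosome 8, 47960185 to 47978160, plus strand) had 203, 214 and 209 CPM in scramble, 238, 235 and 248 CPM with sh76, and 249.1, 258.3 and 239.3 CPM with sh78. Scramble was below both hairpins in every library. MCM4 rose with sh78 by 0.25 (SE 0.06, edgeR adjusted p 0.0193), or 1.19-fold with an interval of 1.10 to 1.30. With sh76 the value was 0.20 (edgeR adjusted p 0.0637), which DESeq2 (adjusted p 0.0454) and the block (0.000471) called. Leaving out 1 library at a time ended the sh78 call in 5 of 9 fits, those without scramble replicate 1, 2 or 3 or sh78 replicate 1 or 2, where the adjusted p was 0.0517 to 0.0872 and the log2 fold change 0.22 to 0.27. The hairpins differed by 0.05, with an interval from −0.07 to 0.17.

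The other 4 subunits of the ring were not called without the block. MCM5 had 77.9, 67.6 and 71.1 CPM in scramble, 75.1, 66.3 and 69.0 CPM with sh76, and 89.7, 81.2 and 78.2 CPM with sh78, so that every sh78 library lay above every other library. Its log2 fold change was 0.20 for sh78 against scramble (edgeR adjusted p 0.199, 0.00375 with the block) and 0.25 against sh76 (0.119, 0.000472 with the block). MCM7 had 354, 327 and 367 CPM in scramble, 329, 287 and 342 CPM with sh76, and 351, 336 and 328 CPM with sh78, with overlap between all groups; its sh76 value of −0.13 was called with the block alone (adjusted p 0.0313 in edgeR). MCM2 and MCM6 were called in no comparison with or without the block, with log2 fold changes from −0.10 to 0.05, though all 3 sh76 libraries of MCM2 (141 to 157 CPM) lay below the scramble libraries (159 to 163 CPM).

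The balance of mRNAs within the ring can be given as each subunit's share of their summed FPKM. MCM3 made up 16.7% ± 0.394 of it in scramble, 17.4% ± 0.849 with sh76 and 19.1% ± 0.898 with sh78 (SD, n = 3). MCM4 made up 13.8% ± 0.608, 16.2% ± 0.443 and 15.6% ± 0.418. MCM7, the largest, made up 36.7% ± 1.23, 34.2% ± 1.52 and 33.7% ± 0.705. A share can fall when other subunits rise. MCM7 itself had log2 fold changes of −0.13 with sh76 and −0.05 with sh78 (edgeR adjusted p 0.379 and 0.818). No test was run on these shares.

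**Figure D3:**
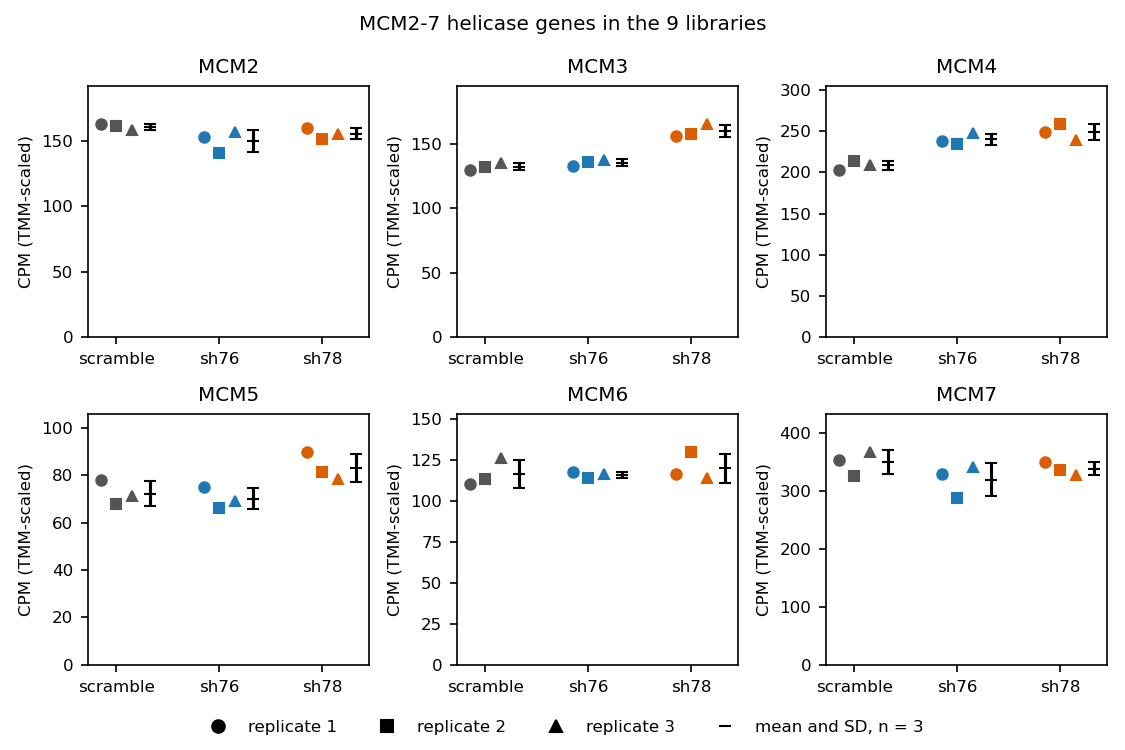
CPM of the 6 helicase ring genes in the 9 libraries (each point a library, symbols for the replicate number, bars for the mean and SD of 3). The sh78 libraries of MCM3 (156 to 165 CPM) lie above all others, both hairpins lie above scramble for MCM4, and all groups overlap for MCM6 and MCM7.

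The origin recognition and licensing genes were called in no comparison without the block. Their 9 log2 fold changes ran from −0.19 to 0.16 with sh76 and from −0.19 to 0.23 with sh78, and all 9 intervals lay within 0.5 of 0 for both. ORC4 (40.6, 44.2 and 42.7 CPM in scramble, 46.7, 46.6 and 42.3 CPM with sh76, 51.1, 47.9 and 47.5 CPM with sh78) lay higher in each sh78 library than in any other, by 0.20 against scramble (edgeR adjusted p 0.184, 0.0177 with the block). CDC6 and CDT1, which load the ring, had log2 fold changes of −0.12 and 0.08 with sh78, and GMNN, which inhibits CDT1, 0.02.

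Of the helicase activators, GINS3 was the one called with the block. GINS3 had 6.69, 6.75 and 6.49 CPM in scramble, 8.64, 8.67 and 8.45 CPM with sh76, and 8.29, 9.08 and 8.51 CPM with sh78, so that every hairpin library exceeded every scramble library. The log2 fold changes of 0.37 and 0.38 (SE 0.13 each) were the highest of the 46 in both comparisons, but at 104 to 179 counts a library they were not called (edgeR adjusted p 0.151 and 0.142, 0.0394 and 0.0409 with the block). The hairpins differed by 0.01, with an interval from −0.27 to 0.28. The other activators, CDC45, GINS1, GINS2, GINS4 and MCM10, were called in no comparison, and MCM8 was not either.

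The extending polymerases gave small values. POLD1, POLD2, POLD3, POLE and POLE2 had log2 fold changes from −0.02 to 0.07 with sh76 and from −0.08 to 0.10 with sh78, and none was called with or without the block. Of polymerase alpha-primase, PRIM2, the large primase subunit, had 27.5, 34.6 and 33.4 CPM in scramble, 34.4, 36.8 and 35.9 CPM with sh76 and 32.2, 38.9 and 38.8 CPM with sh78. The groups overlapped, but PRIM2 was higher with sh78 in 3 of 3 same-numbered pairs, and its value of 0.20 was called with the block (edgeR adjusted p 0.035, 0.356 without it). POLA2 had the widest intervals of the 46, from −0.55 to 0.26 with sh76.

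PCNA, the clamp, was called in no comparison, at 80.2, 91.5 and 96.7 CPM in scramble, 89.1, 88.7 and 99.3 CPM with sh76 and 88.9, 98.2 and 101 CPM with sh78. Of its loader, RFC5 had 41.5, 42.2 and 44.2 CPM in scramble, 40.6, 38.4 and 42.9 CPM with sh76 and 32.2, 35.1 and 38.5 CPM with sh78. Every sh78 library of RFC5 lay below every scramble library. Its log2 fold change of −0.28 was the lowest of the 46 with sh78 (edgeR adjusted p 0.101, 0.00162 with the block), and its difference between sh78 and sh76 was −0.21 (0.247, 0.0215 with the block). RFC1 to RFC4 were called in no comparison.

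The 3 subunits of RPA, which coats single-stranded DNA, did not move in 1 direction between the hairpins. RPA1, the large subunit, had 126, 133 and 139 CPM in scramble, 111, 121 and 128 CPM with sh76, and 137, 141 and 143 CPM with sh78. All sh78 libraries of RPA1 lay above all sh76 libraries, by 0.23 (edgeR adjusted p 0.0828, 0.000196 with the block), and with the block its sh76 value against scramble, −0.14, was called too (0.0176). RPA2 had 44.1, 44.4 and 43.1 CPM in scramble, 44.9, 46.2 and 47.4 CPM with sh76 and 40.8, 40.0 and 41.1 CPM with sh78, with the sh78 libraries below all others. Between sh78 and sh76 its log2 difference was −0.19 (edgeR adjusted p 0.199, 0.0287 with the block). RPA3, the small subunit, had 28.0, 30.5 and 34.2 CPM in scramble, 30.7, 32.5 and 26.5 CPM with sh76 and 25.7, 25.5 and 26.9 CPM with sh78. The sh78 libraries lay below scramble. The value of −0.25 with sh78 was called with the block (edgeR adjusted p 0.0286, 0.221 without it).

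FEN1, the nuclease that trims Okazaki fragments, had 108, 117 and 128 CPM in scramble, 121, 123 and 130 CPM with sh76 and 127, 140 and 139 CPM with sh78. The groups overlapped, and the sh78 value of 0.20 was called with the block (edgeR adjusted p 0.00114, 0.146 without it). LIG1, the ligase that seals them, had 42.5, 43.2 and 48.0 CPM in scramble, 45.5, 38.9 and 47.8 CPM with sh76 and 52.4, 43.3 and 54.9 CPM with sh78. It was higher with sh78 than with sh76 in 3 of 3 same-numbered pairs, by 0.19 (0.0265 in edgeR with the block, 0.402 without it).

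Of the nucleotide supply genes, RRM1, the large subunit of ribonucleotide reductase, had 119, 128 and 150 CPM in scramble, 131, 127 and 140 CPM with sh76, and 154, 152 and 157 CPM with sh78. Every sh78 library lay above every other library. The differences of 0.22 from scramble and 0.22 from sh76 were called with the block (edgeR adjusted p 0.000494 and 0.000624) and not without it (0.144 and 0.16); without scramble replicate 3, the highest scramble library, the difference from scramble was 0.32 and was called (edgeR adjusted p 0.0274). RRM2, the small subunit, whose level limits the enzyme, was called in no comparison (0.07 and 0.10 against scramble), nor were TYMS (0.07 and 0.07) and TK1 (−0.05 and 0.05).

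**Figure D4:**
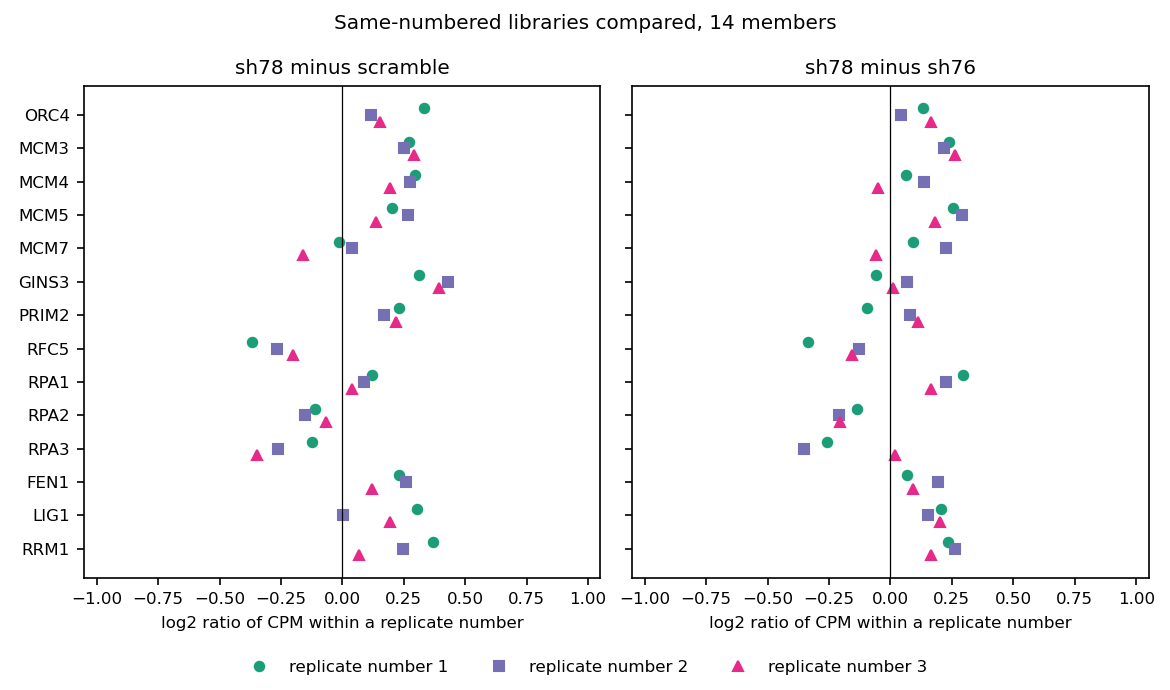
Log2 ratio of CPM between same-numbered libraries, sh78 over scramble (left) and sh78 over sh76 (right), for the 14 replication factors called in any comparison with or without the replicate block. Each symbol is 1 replicate number. ORC4, MCM3, MCM5, RPA1, FEN1, LIG1 and RRM1 lie above 0 in all 3 pairs of both panels, RFC5 and RPA2 below 0.

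Other genes of replication and of the cell cycle were read from lists beside the 46. Of 34 further replication genes tested (among them the kinase subunits CDC7 and DBF4, the fork protection genes TIMELESS and CLSPN, and DUT of nucleotide supply), 0 were called by edgeR in any of the 3 comparisons. At an unadjusted p under 0.05 there were 8 for sh76, 8 for sh78 and 1 between the hairpins, against 17.4%, 17.5% and 16.3% of all genes. The block called 10 (29.4%), 10 (29.4%) and 2 (5.88%), against 20.4%, 19.9% and 18.3% of all genes. Their median log2 fold changes were 0.02, 0.01 and 0.03. Of 27 G1/S regulators 26 were tested, CCND2 being below the count filter. None (0) was called for sh76 (2 at an unadjusted p under 0.05, and 5, or 19.2%, with the block). With sh78, CDK6, a G1 kinase, rose by 0.33 (edgeR adjusted p 0.0111), and CDKN1A, which encodes the CDK inhibitor p21, fell by 0.96 on the log2 scale (edgeR adjusted p 0.0466). These 2 of 26 are 7.69%, against 4.41% of all genes. The block called 5 for sh78 (19.2%, against 19.9% of all genes), 2 higher and 3 lower. CDKN1A had 7.14, 12.0 and 10.6 CPM in scramble, 5.67, 8.96 and 10.5 CPM with sh76 and 4.04, 5.3 and 5.98 CPM with sh78. CCND1, a G1 cyclin, had a log2 fold change of −0.39 with sh78 (edgeR adjusted p 0.0605, 9.93e-07 with the block). Every sh78 library of CCND1 lay below every scramble library. E2F1 to E2F8 were called in no comparison without the block.

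Of 20 G2/M genes, 3 were called higher with each hairpin: MKI67, CENPF and KIF20A. This is 15% of the list, against 1.43% of all genes called higher with sh76 and 1.85% with sh78. With the block 6 (30%) and 9 (45%) were called, all of them higher, against 9.63% and 9.79% of all genes called higher. MKI67, which encodes the proliferation antigen Ki-67, rose by 0.31 with sh76 and 0.31 with sh78 (edgeR adjusted p 0.0125 and 0.00956), from 402 ± 7.7 CPM in scramble to 498 ± 9.7 and 498 ± 36.97 CPM (SD, n = 3). KIF20A, a kinesin of cytokinesis, rose by 0.28 and 0.36 (edgeR adjusted p 0.0336 and 0.00808), and CENPF, a kinetochore protein, by 0.24 and 0.26 (edgeR adjusted p 0.034 and 0.0203). The medians of this list were 0.11 and 0.15, against 0.00 and 0.06 for the 46 replication factors. The hairpin comparisons share the scramble libraries, and the difference between lists was not tested. The G2/M list, like the others, was chosen with earlier results of these data known, so its share called is not an independent result.

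**Figure D5:**
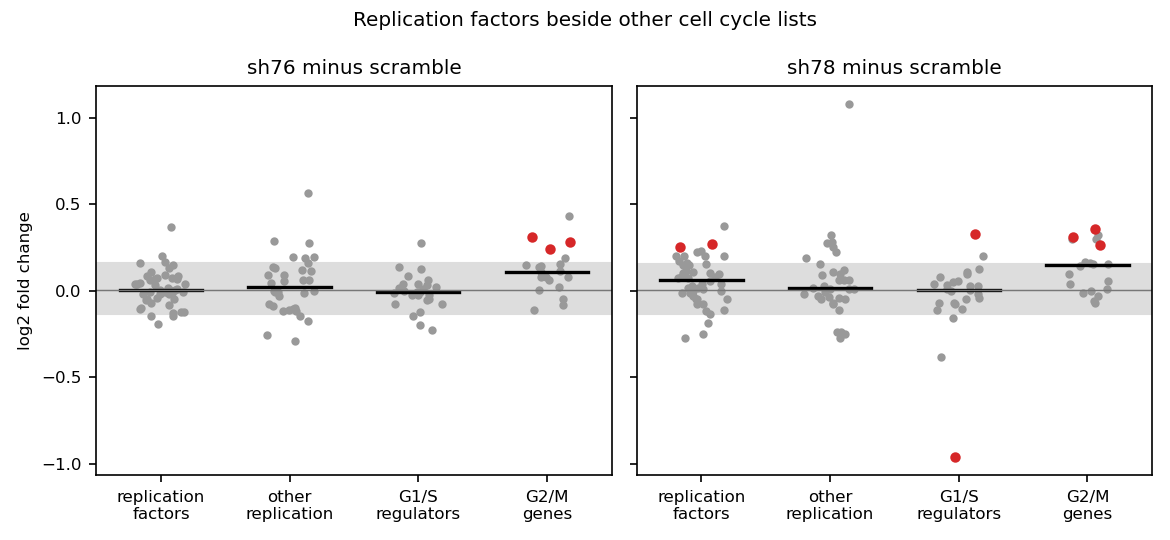
Log2 fold change of each tested gene for sh76 (left) and sh78 (right) against scramble in 4 lists, with list medians (black lines) and called genes (red); the grey band runs between the quartiles of all genes tested. The 46 replication factors centre on 0.00 and 0.06, and the G2/M genes on 0.11 and 0.15.

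The replication factors were also split by a match to either searched E2F form in the promoter, with no test of the difference. Promoters without a match may hold E2F forms that were not searched. MCM4 and MCM5, with no promoter to search, are in neither group. For sh78 the median log2 fold change was 0.07 in the 17 with a match (from −0.12 to 0.38) and 0.04 in the 23 without (from −0.28 to 0.23), and for sh76 it was 0.03 and −0.01. MCM3, with 1 match, rose with sh78, while MCM6, with 2, had 0.04, and PCNA and MCM7, with 1 each, had 0.10 and −0.05.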

How the data were processed

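RNA from 9 OVCAR3 libraries (poly-T selected, non-directional, per the labels' protocols) was used as deposited. HISAT2 2.0.5, featureCounts 1.5.0-p3 and hg38 are named in the submitters' processing notes; their settings are not given in the sources used here. The authors deposited whole-number counts per gene, used as raw counts, and FPKM, which per the file headers rest on a gene length. The library size implied by counts, length and FPKM had a median over genes of 98.09% to 102.97% of the library's total. Agreement gene by gene is not given here. All 58735 identifiers matched GENCODE 29 (GRCh38) in name, start and end. All 9 columns of each kind were used.

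The test was edgeR 4.0.16 under R 4.3.3 (filterByExpr with minimum count 10 and total 15, TMM, robust quasi-likelihood, 1 coefficient per group over 9 libraries, 6 residual degrees of freedom), and p-values were Benjamini-Hochberg adjusted over 17023 genes and 1 contrast at a time; a gene was called under 0.05. The common biological coefficient of variation was 10.4%. Intervals are 95% and unadjusted. Alternatives were RLE size factors, DESeq2 1.42.0, no count filter, the replicate block (4 residual degrees of freedom), limma 3.58.1 on log2(FPKM + 1) and log2(FPKM + 0.1) for genes of at least 0.5 FPKM in 3 libraries, and leaving out each library. Deviations from group means correlated across genes with r of 0.19 to 0.46 in the 9 same-numbered pairs and −0.36 to 0.08 in the 18 others, so the numbers were read as pairing the libraries. Replicates of a group differed by a chi-square per degree of freedom of 5.2 to 11.7, so none was a duplicate. The scripts were tested on simulated data.

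Members and lists were chosen with earlier results of these data known. Given with all 9 values are the 14 members called in any comparison with or without the block; PCNA, CDKN1A and other values outside that rule were chosen after they were seen. Of other lists, genes called without the block are named.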

Additional observations from a re-analysis of the deposited data

Results flagged for a closer look

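Of the 629 genes called between the hairpins, 2 were among the replication factors and the other replication, G1/S and G2/M genes. They were 1 of 46 replication factors (2.17%) and 1 of 26 G1/S regulators (3.85%), against 3.7% of all genes tested. None (0) of the 34 other replication genes or the 20 G2/M genes was called. With sh78, MCM3 was higher by 0.24 on the log2 scale (edgeR adjusted p 0.031), at 156 to 165 CPM against 132 to 138 CPM with sh76. CDK6 was higher with sh78 by 0.33 (edgeR adjusted p 0.0123), at 189 to 209 CPM against 150 to 163 CPM with sh76 and 148 to 167 CPM in scramble. Outside these lists, the targeted gene GPX3 (−0.86, edgeR adjusted p 0.0194) and the epithelial markers KRT19 (−0.67, edgeR adjusted p 0.000315) and PAX8 (0.37, edgeR adjusted p 0.00386) were also called between the hairpins. The MCM3 call between the hairpins was lost when any single sh76 or sh78 library was left out. For CDK6 these fits are not given here. With 3 libraries in a group, no separate test for outlying libraries was run.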

How the results depend on the processing

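The replicate block moved the counts most, to 3467, 3388 and 3117 genes for sh76, sh78 and sh78 against sh76 (610, 750 and 629 without it) and to 4, 10 and 7 replication factors (0, 2 and 1 without it). Without the count filter 1149, 1212 and 1125 genes were called. On log2(FPKM + 1) the counts were 344, 456 and 321, and on log2(FPKM + 0.1) 326, 457 and 332. DESeq2 called 1 replication factor for sh76, and in the other comparisons the replication factors called were the same under DESeq2, RLE, no filter and both FPKM scales. Leaving out 1 library gave 237 (without sh76 replicate 2) to 655 genes for sh76, 418 (without scramble replicate 2) to 810 for sh78 and 273 (without sh76 replicate 2) to 780 between the hairpins; replication factors numbered 0 throughout, 0 to 2 and 0 to 1, and their medians ran from −0.0148 to 0.0345, 0.0354 to 0.0779 and 0.0207 to 0.0658. Of 630 values of the 14 named genes under an alternative, 597 kept their side of the threshold, 20 gained a call and 13 lost it; 17 uncalled values changed sign and no called value did. With 3 libraries a group, precision is set by the spread between libraries as well as by depth.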

Other observations

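The replicate number itself was tested in the fit with the block, a test chosen after the data were seen. It was called for 11 of the 46 replication factors (23.9%), against 28.8% of all genes tested. PCNA had means of 86.1, 92.78 and 99.02 CPM over the 3 libraries of replicates 1, 2 and 3, RFC3 59.7, 49.5 and 54.4 CPM, and POLA1, the catalytic subunit of polymerase alpha, 22.31, 28.97 and 24.98 CPM (edgeR adjusted p 0.00624, 0.00154 and 0.00117). ORC2 was higher in all 3 libraries numbered 1 than in the other 6 (edgeR adjusted p 0.00211).

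Among the further replication genes, RNASEH2A, a subunit of the enzyme that removes RNA from DNA, had 4 to 11 counts in each scramble library and under 1.2 CPM in all 9 libraries, and 30.8% of its exonic bases are shared with THSD8 on the same strand. RRM2B, the alternative small subunit of ribonucleotide reductase, had a log2 fold change of −0.29 with sh76, which the block alone called (edgeR adjusted p 0.175 without it, 0.00015 with it).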
